A study of Mus musculus with 12 samples.

Results

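The 9 genes described here, Clec4f, Cd5l, Vsig4, Timd4, Marco, Csf1r, Adgre1, Cd163 and Id3, are genes commonly used to define the Kupffer cell (KC), and they were chosen by name from the 32285 genes of the count matrices. All 9 were found in the matrices. Their UMIs (unique molecular identifiers, each standing for 1 captured RNA molecule) were summed over spliced, unspliced and ambiguous assignments and followed in single-nucleus RNA sequencing of mouse liver. The samples came from 8 mice, and each mouse gave 1 sample of each of 3 types: Liver (L), a piece of the median lobe frozen after blood had been flushed out, Cell Suspension (CS), hepatocytes freshly released by collagenase and washed by repeated low-speed spins, and Primary Hepatocytes (PH), the same cells after 24 hours on collagen in medium with dexamethasone and insulin, lifted with trypsin before freezing. All animals were wild type and 10 to 12 weeks old; the labels name the strain as C57BL6J and the study's methods as male C57BL/6NTac, and no genetic change separated the groups, while the dexamethasone and insulin were part of the culture of PH. The isolation selects for hepatocytes. The study reported Kupffer cells as absent from its cultures, while its table of nuclei annotates some PH nuclei as Kupffer cells. Whether these nuclei came through the culture was not tested.

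Kupffer cells are the resident macrophages of the liver. They sit inside the sinusoids, where they take up bacteria, worn red cells and other particles from the blood, and they are kept alive by colony stimulating factor signalling through the receptor CSF1R. Their identity is set locally: endothelial and stellate cells supply Notch and BMP family signals, and transcription factors such as NR1H3 (LXRα), SPIC and ID3 act on the macrophage program that PU.1 (Spi1) provides. The 9 genes fall into groups by role. Clec4f (a C-type lectin receptor), Vsig4 (a complement receptor), Timd4 (a phosphatidylserine receptor for dead cells), Marco (a scavenger receptor for bacteria) and Cd163 (the receptor for haemoglobin bound to haptoglobin) are surface receptors for uptake. Cd5l encodes a secreted protein, AIM, that binds circulating IgM. Csf1r and Adgre1 (the F4/80 antigen) are general macrophage receptors, and Id3 encodes a helix-loop-helix protein without a DNA-binding domain, which is made by many cell types.

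The table of nuclei held 53467 nuclei, of which 1338 were annotated as Kupffer cells, 919 from L, 342 from CS and 77 from PH. All Kupffer nuclei belonged to 1 cluster. The 24 samples carried hashtag antibodies and were run in 6 pools of 4, with 337 cell barcodes occurring in several pools. Summed UMIs per sample ran from 2709659 to 32104065. The lowest total belonged to the Cell Suspension of mouse 7, with 880 nuclei, which shared its pool with 3 Liver samples and stood apart for several members. The Liver of mouse 2 held the largest share of Kupffer nuclei. Results that rest on these samples are given with and without them. Only pools 2 and 5 held both Liver and Primary Hepatocytes, so pool and sample type overlapped in large part.

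In the mouse genome (GRCm38), Clec4f (ENSMUSG00000014542) lies at chr6:83644542-83656187 on the minus strand and Cd163 (ENSMUSG00000008845) on the same chromosome at chr6:124304656-124330527 on the plus strand. Cd5l (ENSMUSG00000015854) lies at chr3:87357881-87371073 (plus), Vsig4 (ENSMUSG00000044206) at chrX:96247203-96293438 (minus) and Timd4 (ENSMUSG00000055546) at chr11:46810800-46844332 (plus). Marco (ENSMUSG00000026390) lies at chr1:120474538-120505024 (minus), Adgre1 (ENSMUSG00000004730) at chr17:57358691-57483527 (plus) and Id3 (ENSMUSG00000007872) at chr4:136143497-136145755 (plus). Csf1r carries the identifier ENSMUSG00000024621. All 9 are protein-coding and do not overlap each other. They differ in how much intron they carry, which matters for nuclear RNA: exons made up 79.3% of the 2.259 kb of Id3, 21.2% of Clec4f, 3.21% of Vsig4 and 2.59% of the 124.837 kb of Adgre1.

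Of the 9 members, 7 had a promoter entry in the RefSeq table (GRCm38.p6). The windows are the 250 bases before the start that the RefSeq promoter table uses, whereas the gene positions above are those of GENCODE, which for Clec4f and Id3 begin further upstream. The window of Id3 thus lies within the GENCODE gene and that of Clec4f in part, and the other 5, which lie outside their GENCODE genes, are shown so that their letters can be read beside the counts. All 7 windows were searched on both strands for GAGGAA (the core recognised by PU.1), TGCTGA (a word bound by some leucine zipper factors), AGGTCA (a word bound by nuclear receptors), GGCGCC (a SMAD site of BMP signalling) and TATAAA. The windows shown are chr3:87357631-87357880 (plus) for Cd5l, chrX:96293439-96293688 (minus) for Vsig4, chr11:46810549-46810798 (plus) for Timd4, chr1:120505025-120505274 (minus) for Marco and chr6:124304401-124304650 (plus) for Cd163. They read 5′ to 3′ towards the gene, and capitals mark a match to one of the searched words or to its reverse complement.
Cd5l: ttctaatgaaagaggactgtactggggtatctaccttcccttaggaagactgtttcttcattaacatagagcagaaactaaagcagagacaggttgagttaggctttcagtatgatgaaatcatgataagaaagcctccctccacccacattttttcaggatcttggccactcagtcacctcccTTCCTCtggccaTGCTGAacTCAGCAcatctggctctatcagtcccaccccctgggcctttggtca
Vsig4: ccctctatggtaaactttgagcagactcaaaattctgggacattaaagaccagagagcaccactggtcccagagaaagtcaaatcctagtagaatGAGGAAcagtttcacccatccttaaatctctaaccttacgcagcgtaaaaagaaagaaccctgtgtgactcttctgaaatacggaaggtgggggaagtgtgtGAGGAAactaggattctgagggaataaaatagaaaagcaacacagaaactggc
Timd4: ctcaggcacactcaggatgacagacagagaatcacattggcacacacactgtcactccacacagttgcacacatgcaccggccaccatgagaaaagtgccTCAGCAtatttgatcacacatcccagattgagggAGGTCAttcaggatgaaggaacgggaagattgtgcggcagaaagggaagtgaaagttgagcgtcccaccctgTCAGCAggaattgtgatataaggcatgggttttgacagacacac
Marco: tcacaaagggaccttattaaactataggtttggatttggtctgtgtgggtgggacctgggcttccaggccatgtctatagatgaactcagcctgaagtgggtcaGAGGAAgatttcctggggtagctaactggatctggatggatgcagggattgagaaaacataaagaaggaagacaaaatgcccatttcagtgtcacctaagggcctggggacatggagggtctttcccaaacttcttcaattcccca
Cd163: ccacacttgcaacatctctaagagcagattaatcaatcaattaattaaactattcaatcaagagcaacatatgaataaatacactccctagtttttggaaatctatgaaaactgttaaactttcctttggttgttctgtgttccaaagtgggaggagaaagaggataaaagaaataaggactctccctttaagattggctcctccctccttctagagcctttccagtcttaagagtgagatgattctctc
Vsig4 held GAGGAA at 155 and at 53 bases before the start and Marco held it at 146. In Cd5l the reverse complement of GAGGAA lay 66 bases before the start, next to TGCTGA at 54 and its reverse complement at 46. Timd4 held the reverse complement of TGCTGA at 150 and at 44 bases and AGGTCA at 116, and Clec4f held TGCTGA at 199 and, within the GENCODE gene, the reverse complement of AGGTCA at 22 bases before the RefSeq start. Over the 7 windows, GAGGAA occurred in 4 (Cd5l, Vsig4, Marco and Id3), against 23.1% of 27025 promoters of the same length, TGCTGA in 3 (Clec4f, Cd5l and Timd4), against 15.8%, and AGGTCA in 2 (Clec4f and Timd4), against 13.8%. GGCGCC, present in 9.54% of promoters, and TATAAA, in 13.0%, were found in 0 of the 7. The window of Cd163 held no match. Csf1r and Adgre1 are named only.

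The label was checked first in Liver, where the annotation of nuclei can be set beside each member. Because the annotation was itself drawn from clusters of these counts, this is a description without a test. Levels are given as CPM, the UMIs of a gene scaled to a common total over the nuclei summed. Clec4f reached 1644 CPM over all Kupffer nuclei of Liver and 3.45 CPM over all other nuclei. It was found in 78.2% of Kupffer nuclei, at a median depth of 2740 UMIs, and in 2.11% of hepatocyte nuclei, a cell type that should lack it, although nuclei other than Kupffer had the larger median depth of 5731 UMIs. Cd5l stood at 1276 against 2.05 CPM, Vsig4 at 813 against 1.76 and Timd4 at 550 against 0.924. Among the receptors with wider use in macrophages, Csf1r stood at 610 CPM in Kupffer nuclei against 1.55 elsewhere, Adgre1 at 1123 against 4.23 and Cd163 at 558 against 0.937. Marco was sparse, at 58.2 against 0.329 CPM, and was seen in 8.60% of Kupffer nuclei. For these 8 members, Kupffer nuclei held between 77.2% (Marco) and 92.3% (Cd5l) of the Liver UMIs, although they held 1.89% of all Liver UMIs.

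Id3 went against the label. It reached 26.6 CPM in Kupffer nuclei of Liver and 25.9 CPM in all others, and Kupffer nuclei held 1.93% of its Liver UMIs, near their 1.89% share of all UMIs. Taken over the 8 Liver samples, Id3 stood at 52.9 ± 25.8 CPM in endothelial nuclei (SD, n = 8), 39.3 ± 20.7 in biliary, 29.6 ± 15.0 in stellate, 23.3 ± 13.3 in Kupffer, 22.6 ± 8.51 in hepatocyte and 13.6 ± 12.5 in leukocyte nuclei. Neighbours in this order lay within 1 SD of the more variable of the pair, and the per-sample ranges of endothelial (22.9 to 100 CPM) and hepatocyte nuclei (4.66 to 32.7 CPM) overlapped as well. Sums over the Kupffer genes below leave Id3 out, while the number of members per nucleus and the mean over the 9 include it.

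**Figure D1:**
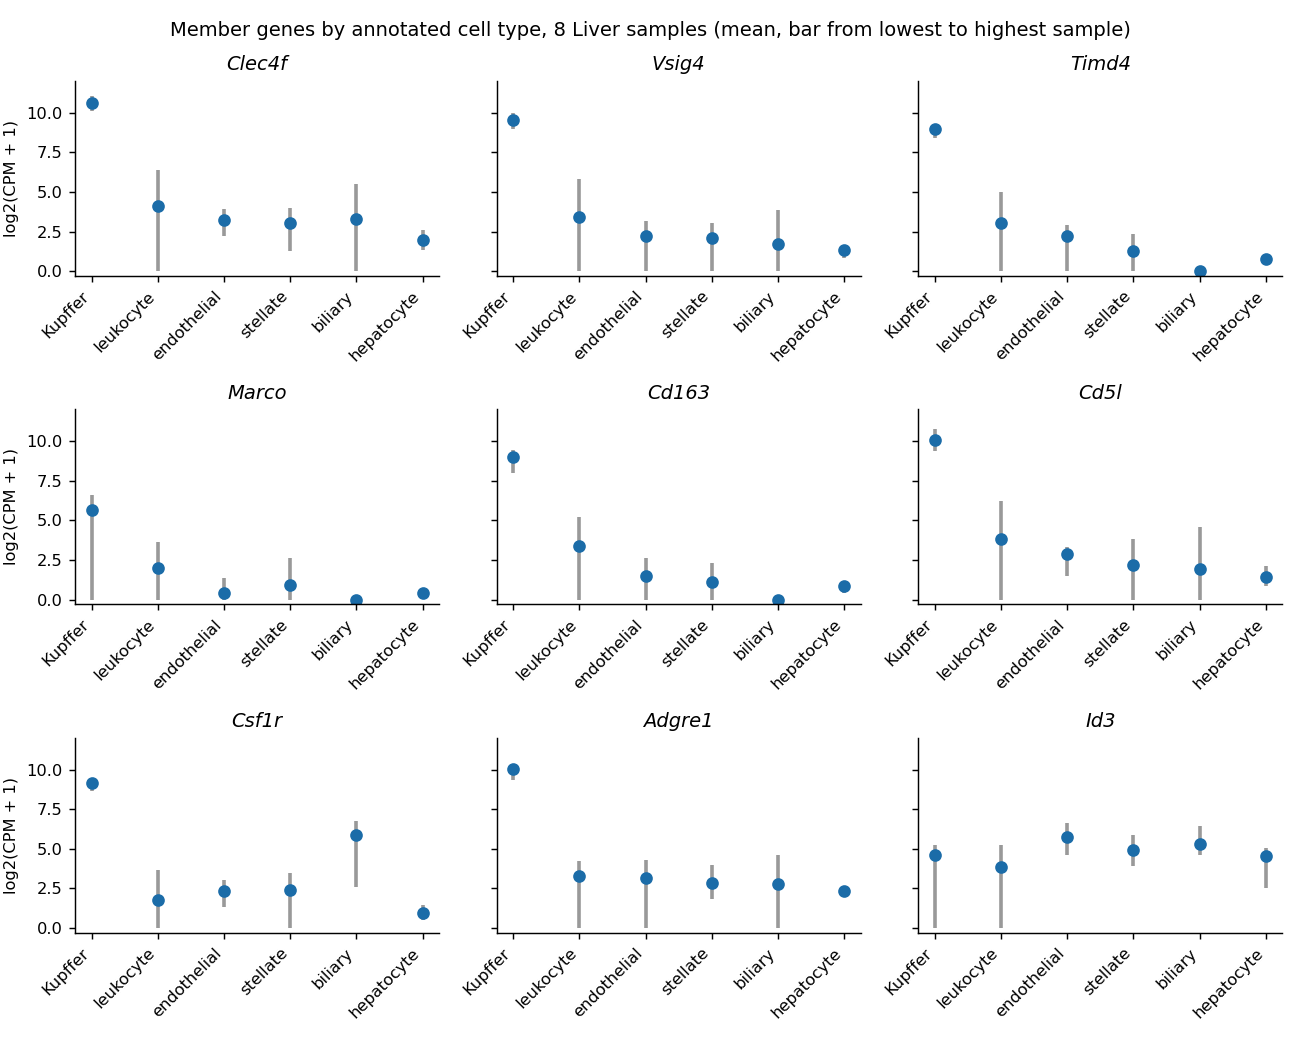
Level of each member by annotated cell type in the 8 Liver samples, on a log2(CPM + 1) axis, with the mean as a point and a bar from the lowest to the highest sample. The Kupffer point stands above all other types for 8 members, while Id3 has its highest mean, 52.9 CPM, in endothelial nuclei.

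Csf1r was the other member with a second place of expression. Its mean over the Liver samples was 572 ± 105 CPM in Kupffer nuclei (SD, n = 8), 58.8 ± 35.7 in nuclei annotated as biliary, 4.18 ± 3.45 in stellate, 4.11 ± 1.76 in endothelial, 2.43 ± 4.13 in leukocyte and 0.976 ± 0.449 in hepatocyte nuclei. Neighbours among the last 4 lay within 1 SD of the more variable of the pair. The lowest Kupffer sample (407 CPM) stood above the highest biliary one (106 CPM), while the lowest biliary sample (4.95 CPM) reached into the stellate range (0 to 10.2 CPM). The biliary value rests on 38 UMIs in 220 nuclei, and 78.9% of these were unspliced. Over the nuclei of all 3 sample types, both biliary clusters carried it, at 77.0 CPM in the cluster with summed biliary markers of 7247 CPM and at 39.8 CPM in the other, whose biliary markers summed to 294 CPM and whose stellate markers summed to 3146 CPM. Clec4f and Adgre1 each had 5 UMIs in the 220 biliary nuclei of Liver.

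The first comparison asked how many Kupffer nuclei each preparation kept. They made up 1.64% of nuclei in the lowest Liver sample, 4.35% at the median and 10.6% in the highest. For Cell Suspension these values were 0.582%, 2.74% and 5.11%, and for Primary Hepatocytes 0.116%, 0.380% and 0.991%. All Primary Hepatocytes samples lay below all Liver samples, whereas Cell Suspension overlapped with both other groups. The mean share was 5.08% ± 2.95 for L, 2.75% ± 1.70 for CS and 0.424% ± 0.280 for PH (SD, n = 8 each). By an exact two-sided permutation test, Primary Hepatocytes lay 4.66 percentage points below Liver (p = 0.000155, the smallest such p with 8 against 8, adjusted p = 0.000466 over the 3 comparisons) and 2.32 below Cell Suspension (p = 0.00124, adjusted p = 0.00186). Cell Suspension lay 2.33 points below Liver, which did not pass the exact test (p = 0.0698). Without mouse 7 that difference was 2.83 points (exact p = 0.0484). These tests took the samples as unpaired, although the groups shared their mice. Hepatocytes were more frequent in Cell Suspension. As a share of the nuclei other than hepatocytes, Kupffer nuclei made up 19.0% ± 5.00 in L, 20.7% ± 7.83 in CS and 5.77% ± 5.01 in PH (SD, n = 8 each). On this scale Cell Suspension lay 1.71 points above Liver instead (exact p = 0.610) and Primary Hepatocytes 13.3 points below it (adjusted exact p = 0.0014 over the 3 comparisons). The groups then overlapped, with the highest Primary Hepatocytes sample at 14.9% and the lowest Liver sample at 13.8%.

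In whole samples, with the UMIs of all nuclei summed, all 9 members were lower in Primary Hepatocytes than in Liver, where 27.1 percent of all genes were called lower. The 9 hepatocyte markers were lower as well, 9 of 9 with a median of log2 −2.33, and 9 of 9 against Cell Suspension. Such sums cannot tell fewer Kupffer nuclei from less RNA per nucleus. Clec4f ran from 8.31 CPM in the lowest Liver sample over a median of 30.4 to 108, and in Primary Hepatocytes from 1.29 over 3.13 to 6.21. The groups did not overlap. The fitted fold change was 14.4-fold lower (log2 −3.84, SE 0.47, adjusted p = 4.42e-08, quasi-likelihood test of edgeR, p adjusted by the Benjamini-Hochberg method over 27269 genes). Timd4, which lets macrophages bind dying cells, ran from 2.43 over 10.7 to 28.3 CPM in Liver and from 0.471 over 1.00 to 1.82 in Primary Hepatocytes. These groups did not overlap either, and Timd4 was 16.0-fold lower (log2 −4.00, SE 0.51, adjusted p = 8.37e-08). For the secreted factor Cd5l the Liver samples ran from 3.81 over 21.6 to 73.5 CPM and the Primary Hepatocytes from 0.608 over 1.75 to 4.67. A single Liver sample reached into the range of the cultured cells, and Cd5l was 15.6-fold lower (log2 −3.96, SE 0.58, adjusted p = 9.55e-07). Cd163 went from a median of 10.4 to 1.19 CPM (14.0-fold lower, log2 −3.81, SE 0.52) and Vsig4 from 16.2 to 1.72 CPM (11.6-fold lower, log2 −3.54, SE 0.49), each with a small overlap of the ranges.

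The fitted changes were smaller for the other 4 members, and differences between genes were not tested. Csf1r had a median of 11.7 CPM in Liver, with a range of 2.91 to 36.3, and of 3.28 CPM in Primary Hepatocytes, with a range of 1.57 to 4.77. The ranges overlapped at the low end of Liver, and Csf1r was 5.53-fold lower (log2 −2.47, SE 0.44, adjusted p = 1.81e-05). Adgre1 went from a median of 25.3 to 6.93 CPM, 4.98-fold lower (log2 −2.32, SE 0.37, adjusted p = 4.12e-06). Marco was 3.58-fold lower (log2 −1.84, SE 0.44, adjusted p = 0.000543) at medians of 1.33 and 0.510 CPM, which is a small number of UMIs per sample. Id3 ran from 7.44 over 25.1 to 34.0 CPM in Liver and from 10.4 over 15.1 to 19.3 in Primary Hepatocytes, 2.18-fold lower (log2 −1.12, SE 0.29, adjusted p = 0.00149). Lower calls were frequent in this comparison, at 27.1 percent of all genes tested, so 9 of 9 is read against that background. All 9 were also lower with each mouse left out in turn, without the Liver of mouse 2 and with the pool as a covariate, where Marco came closest to the threshold (log2 −1.33, adjusted p = 0.0369).

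**Figure D2:**
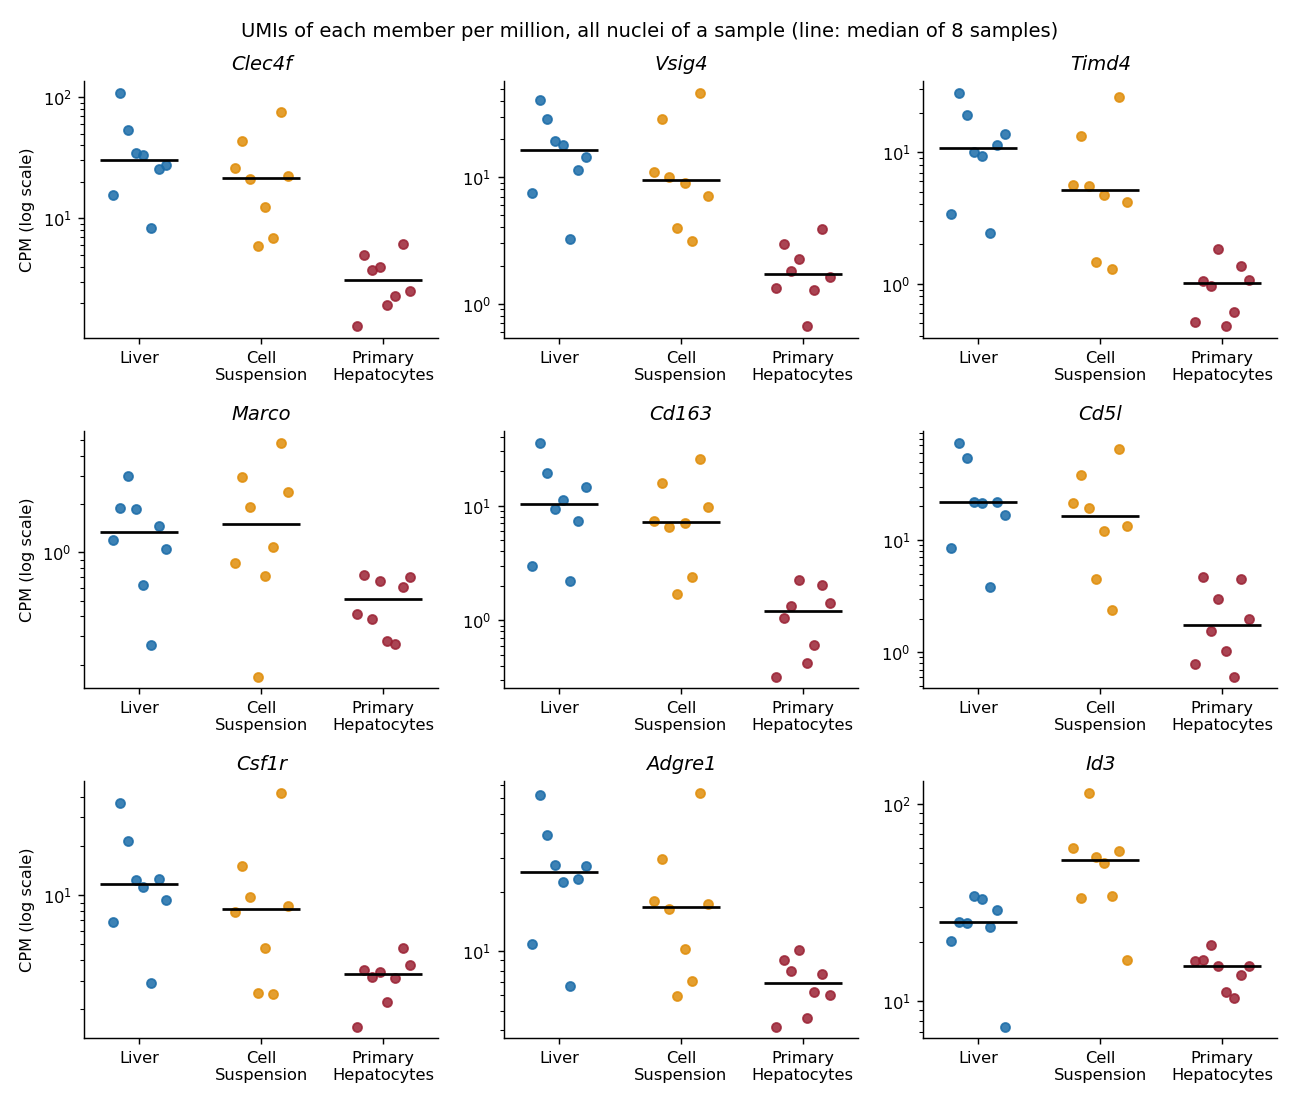
CPM of each member over all nuclei of a sample, on a log axis, with 1 point per sample and a line at the median of 8 samples. Clec4f and Timd4 do not overlap between Liver and Primary Hepatocytes, and Id3 is highest in Cell Suspension, with a median of 52.0 CPM.

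Against Cell Suspension, with which the Liver comparison shares the cultured samples, the 9 members were lower in Primary Hepatocytes as well, where 23.4 percent of genes were called lower. The fold changes were log2 −3.76 for Cd5l, −3.48 for Cd163, −3.45 for Clec4f, −3.39 for Timd4, −3.36 for Vsig4, −2.24 for Csf1r, −2.18 for Marco and −2.04 for Adgre1, with adjusted p between 5.09e-08 and 0.000228 over the 9 members in edgeR's test. Id3 fell more here than against Liver, 5.48-fold (log2 −2.46, adjusted p = 5.09e-08), and of the 3 sample types it stood highest in Cell Suspension.

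Between Cell Suspension and Liver, Id3 was the only member called in whole samples. It ran from 16.2 CPM over a median of 52.0 to 113 in Cell Suspension and from 7.44 over 25.1 to 34.0 in Liver. The ranges overlapped, with 1 Cell Suspension sample below most of Liver, and Id3 was 2.51-fold higher (log2 1.33, SE 0.29, adjusted p = 0.00109). In this comparison 8.01 percent of genes were called higher and 12.6 percent lower, so that 38.8% of the calls were higher, against 50.4% with RLE scaling of the libraries. The other 8 members had log2 differences from −0.61 (Timd4) to 0.34 (Marco) with adjusted p from 0.363 to 0.827. The 95% interval for Clec4f ran from −1.21 to 0.42. Without the Liver of mouse 2, Cd5l, Vsig4, Csf1r and Cd163 moved from below 0 to between 0.01 and 0.11. Without the Cell Suspension of mouse 7 the differences were larger, at −1.02 for Timd4 (edgeR, adjusted p = 0.0769), −0.71 for Clec4f, −0.71 for Csf1r and −0.63 for Adgre1, and did not pass.

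Within the nuclei annotated as Kupffer cells, Cell Suspension and Liver could be compared over 8 samples each. Clec4f ran from 1096 CPM over a median of 1609 to 2115 in Liver and from 1120 over 1401 to 2243 in Cell Suspension. Cd5l had medians of 1089 and 1269 CPM, Vsig4 of 699 and 739, Timd4 of 538 and 421, Cd163 of 550 and 529, Csf1r of 582 and 471 and Adgre1 of 1110 and 897, in Liver and Cell Suspension respectively. The ranges overlapped for every member. The 8 members other than Id3 had log2 differences from −0.33 (Timd4) to 0.55 (Marco) with adjusted p from 0.531 to 0.996 by edgeR's test over 13819 genes. The 95% intervals bound these differences: −0.52 to 0.22 for Clec4f, −0.35 to 0.55 for Cd5l, −0.45 to 0.38 for Vsig4, −0.73 to 0.06 for Timd4, −0.43 to 0.36 for Csf1r and −0.18 to 1.28 for Marco. A log2 difference of −1 lies below all of these intervals. They cover only nuclei that kept the Kupffer annotation, which was itself drawn from these counts. Nuclei that had lost the members and with them the annotation are not counted, so a loss of that kind is not bounded. The median over all genes was −0.17 in this fit. With another scaling of the libraries (RLE) that median was −0.01, and Clec4f, Vsig4, Csf1r and Cd163 changed sign, to 0.03, 0.15, 0.15 and 0.19.

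Id3 was again the member that passed, where 1.3 percent of genes were called in either direction and 1.08 percent as higher (82.8% of the calls, against 94.9% with RLE scaling). It ran from 0 over 26.4 to 36.9 CPM in Liver Kupffer nuclei and from 0 over 52.9 to 175 in those of Cell Suspension, so the groups overlapped at the low end. The difference was 2.74-fold (log2 1.45, SE 0.36, adjusted p = 0.0229). It rests on 79 UMIs in Liver and 60 in Cell Suspension. It was not called when mouse 1, 3 or 7 was left out (edgeR, adjusted p = 0.177, 0.173 and 0.0541) or on sums thinned to the same total (log2 0.97, adjusted p = 0.948), and its counts were too low to be tested with a stricter filter or on unspliced counts alone. Id3 in hepatocyte nuclei stood at 24.1 CPM in Liver and 53.6 CPM in Cell Suspension over the same samples. Summed hepatocyte markers (9 of 9 detected) ran from 2098 to 5036 CPM in Liver Kupffer nuclei and from 1276 to 9520 in those of Cell Suspension, with 0 of 9 called, and their part in the Id3 difference was not tested.

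The share of Kupffer nuclei with a UMI was also compared at matched depth. Nuclei of Cell Suspension held fewer UMIs (median 1907.5 against 2740), so each was thinned to 1000 UMIs and shallower nuclei were left out, which left 7 Cell Suspension and 8 Liver samples with at least 10 nuclei. Clec4f was then found in 67.9% ± 8.03 of Liver and 70.4% ± 5.71 of Cell Suspension Kupffer nuclei (exact two-sided permutation test, p = 0.496). Unthinned, the pooled shares were 78.2% and 76.6%. Cd5l went from 55.9% ± 12.2 to 68.3% ± 7.97 (exact p = 0.0395), which did not pass after adjustment over 3642 genes (adjusted p = 0.310), where 0.741 percent of genes were called. For Id3 the share was 2.17% ± 1.34 in Liver and 6.49% ± 4.02 in Cell Suspension (exact p = 0.000622), but Id3 was below the minimum share for the adjustment over all genes. Paired by mouse the exact p was 0.0312, and without thinning it was 0.117. The other members differed by −0.941 (Adgre1) to 6.08 percentage points (Vsig4), with exact p from 0.0793 to 0.873.

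The matrices also count unspliced RNA apart, which marks transcripts not yet processed. In Liver Kupffer nuclei 34.3% of Clec4f UMIs were unspliced, 59.5% of Cd163, 68.9% of Cd5l, 69.0% of Csf1r, 87.9% of Timd4, 88.0% of Vsig4 and 95.3% of Adgre1, against 7.59% of Id3. The order follows in part the intron content given above, with Id3 and Adgre1 at the 2 ends. Between sample types, the unspliced share of Timd4 went from 78.6% to 90.9% in Liver (mean 86.9% ± 3.73, n = 8) and from 67.4% to 85.9% in Cell Suspension (77.0% ± 5.91, n = 7). By an exact two-sided permutation test this had p = 0.00311, and 0.285 after adjustment over the 1285 genes with at least 20 UMIs in enough samples. Csf1r went from 70.4% ± 4.55 to 58.6% ± 9.07 (exact p = 0.00342, adjusted p = 0.293) and Cd5l from 69.0% ± 2.57 to 62.0% ± 5.65 (exact p = 0.00715, adjusted p = 0.340). None of the 3 passed over all genes, where 0 percent were called and 136 genes had an unadjusted exact p under 0.05. Paired by mouse, Timd4 was lower in Cell Suspension in 7 of 7 mice (exact paired p = 0.0156, the smallest possible), Csf1r in 6 of 7 (p = 0.0312, exact) and Cd5l in 6 of 7 (p = 0.0469, exact). Clec4f, Vsig4, Adgre1 and Cd163 had differences between −1.98 and −4.48 percentage points, with exact p of 0.132 to 0.210.

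Over all UMIs of Kupffer nuclei the unspliced share ran from 70.1% to 74.6% in Liver and from 62.6% to 68.9% in Cell Suspension (72.0% ± 1.84 and 66.2% ± 2.24, n = 8 each). The groups did not overlap (exact two-sided permutation test with samples taken as unpaired, p = 0.000155, the smallest possible). Of the 1285 genes, 65.2% had a lower share in Cell Suspension. The median over these genes was −1.20 percentage points and the lower quartile −3.95, while the difference over all UMIs was −5.87. The members stood at −11.8 (Csf1r), −9.89 (Timd4), −7.01 (Cd5l), −4.48 (Clec4f), −4.37 (Cd163), −3.08 (Vsig4) and −1.98 (Adgre1). Of the 1285 genes, 0 were called after adjustment.

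**Figure D3:**
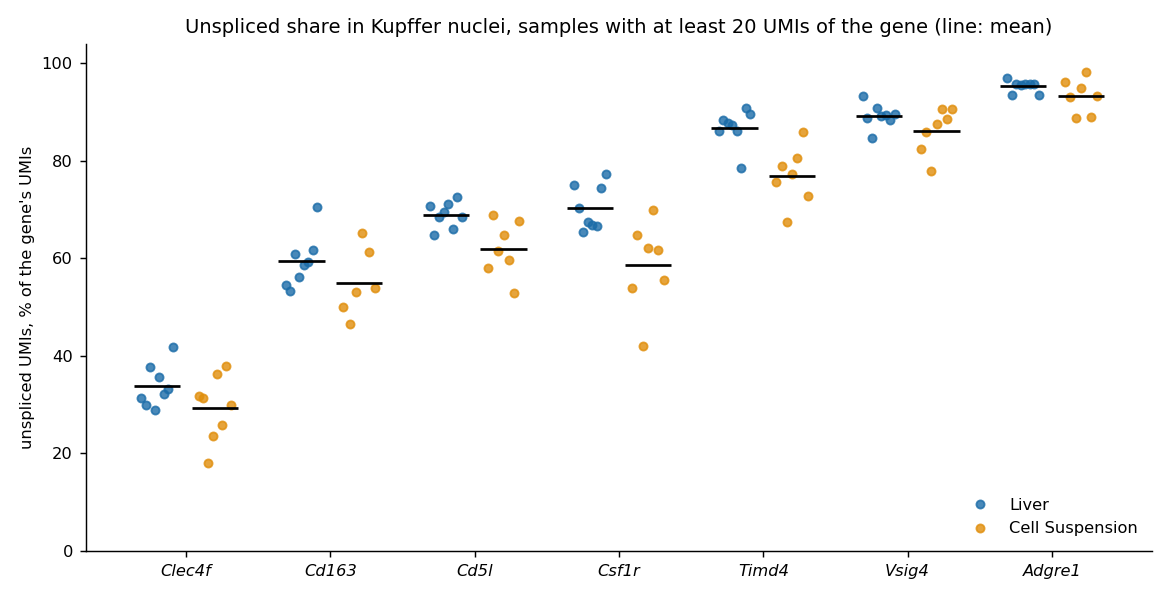
Unspliced UMIs as a percent of each gene's UMIs in Kupffer nuclei, 1 point per sample with at least 20 UMIs of the gene, Liver and Cell Suspension side by side, with a line at the mean. The line drops from 86.9% to 77.0% for Timd4, from 70.4% to 58.6% for Csf1r and from 69.0% to 62.0% for Cd5l, and by less for the other 4 genes.

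In Primary Hepatocytes, 77 nuclei carried the Kupffer annotation, 3 to 22 per sample. Their pooled levels were 689 CPM for Clec4f (152 UMIs), 412 for Cd5l (91), 390 for Adgre1 (86), 290 for Vsig4 (64), 222 for Cd163 (49), 213 for Csf1r (47), 122 for Timd4 (27), 22.7 for Id3 (5) and 18.1 for Marco (4). Each of the 9 members had a lower pooled level than in Liver or Cell Suspension, where Clec4f stood at 1644 and 1522 CPM.

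The 3 cultured samples with at least 10 Kupffer nuclei could be compared with the 8 Liver samples, in a fit added after the data were seen. Clec4f was at 202, 529 and 815 CPM in these, all below the lowest Liver sample at 1096, and the 5 samples with fewer nuclei ran from 0 to 1026 CPM. By edgeR's test over 13948 genes, 7 of the 9 members were lower within Kupffer nuclei, where 4.37 percent of genes were called lower. Vsig4 fell by 3.68 on the log2 scale (SE 0.52, edgeR, adjusted p = 1.55e-06), Timd4 by 3.17, Cd5l by 2.82, Adgre1 by 2.15, Clec4f by 2.14 (SE 0.35, adjusted p = 2.04e-05), Csf1r by 1.68 (adjusted p = 0.00283) and Cd163 by 1.52 (adjusted p = 0.0105). Marco (log2 −1.69, 95% interval −3.82 to 0.45) and Id3 (−0.65, interval −2.83 to 1.53) rest on 2 UMIs each in the cultured samples and did not pass. The median over all genes was −0.74 in this fit and −0.09 with RLE scaling, and of the calls 23.0% and 69.5% were higher. With RLE scaling Vsig4 was at −3.03, Timd4 at −2.51, Cd5l at −2.16, Clec4f at −1.51 and Adgre1 at −1.49. These 5 passed there, and Csf1r (−1.02, adjusted p = 0.115) and Cd163 (−0.86, adjusted p = 0.278) did not. The 3 samples gave 7 UMIs each of Vsig4 and Timd4, 19 of Cd5l and 43 of Clec4f. Most UMIs of these members in cultured Kupffer nuclei lay in the 5 samples left out. Those included the samples with the most Kupffer UMIs, of mice 2 (42380) and 7 (36078). For Vsig4, Timd4, Cd5l and Clec4f, pooled levels over all cultured Kupffer nuclei stood nearer to Liver than these folds. The folds hold for the 3 samples alone. Single cultured samples moved several folds, which went to −4.94 for Vsig4 without that of mouse 3, and to −4.39 for Timd4 and −3.91 for Cd5l without that of mouse 8. Both UMIs of Id3 lay in the sample of mouse 3, and no fold of Id3 can be given without it. Without the sample of mouse 5, Csf1r (edgeR, adjusted p = 0.0943) and Cd163 (adjusted p = 0.109) did not pass, and without that of mouse 3 Cd163 did not (adjusted p = 0.0992).

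Clec4f was found in 44.2% of the cultured Kupffer nuclei, Csf1r in 35.1%, Adgre1 in 33.8%, Cd5l in 29.9% and Timd4 in 19.5%.

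Seen per nucleus, the median Kupffer nucleus held UMIs of 6 of the 9 members (Liver), 5 (Cell Suspension) and 1 (Primary Hepatocytes). None of the 9 was found in 7.18% of the Kupffer nuclei of L, 7.89% of those of CS and 28.6% of those of PH. At a matched depth of 1000 UMIs these shares were 10.1%, 7.81% and 31.6%. Averaged per sample, thinned Kupffer nuclei held 2.57 to 3.91 members for L, 2.71 to 4.68 for CS and 0 to 3.14 for PH. The cultured samples lay lower, with overlap. They held 3 to 11 such nuclei each, and their values of 0 and 3.14 rest on 3 and 7 nuclei. The lowest value for CS rests on 7 nuclei. In nuclei with over 3000 UMIs the median was 7 members in Liver and Cell Suspension and 5 in Primary Hepatocytes, and in nuclei with less than 1500 UMIs it was 3, 2 and 0. Cultured Kupffer nuclei with at most 2 members, 51 of 77, held 3843 CPM of other Kupffer genes, with 4014 CPM of hepatocyte markers. The 26 with 3 or more members held 4066 and 2296 CPM. The former were shallower, at a median of 1057 UMIs against 3309. In Liver the nuclei with at most 2 members held 4845 CPM of the other Kupffer genes and those with 3 or more 7655 CPM, with 3831 and 3305 CPM of hepatocyte markers. Depth differed there too, at medians of 1321.5 and 3020 UMIs. Over all sample types, the other Kupffer genes summed to 2075 and 2423 CPM in the leukocyte clusters and to 426 to 1851 in the annotated endothelial clusters. Cultured clusters read as hepatocyte held 479 to 895 CPM of them and 2682 to 8081 CPM of hepatocyte markers. The margin of the hashtag assignment had a median of 0.902 in the cultured Kupffer nuclei and 0.976 in the other cultured nuclei. The same medians were 0.911 and 0.988 in Liver samples and 0.845 and 0.977 in Cell Suspension samples. The assigned hashtag held a median of 30.5% of a nucleus's hashtag UMIs in cultured Kupffer nuclei and 42.6% in the other cultured nuclei. These medians were 28.4% and 51.1% in Liver samples and 33.8% and 47.7% in Cell Suspension samples. The part of mixed assignment in these values was not tested.

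**Figure D4:**
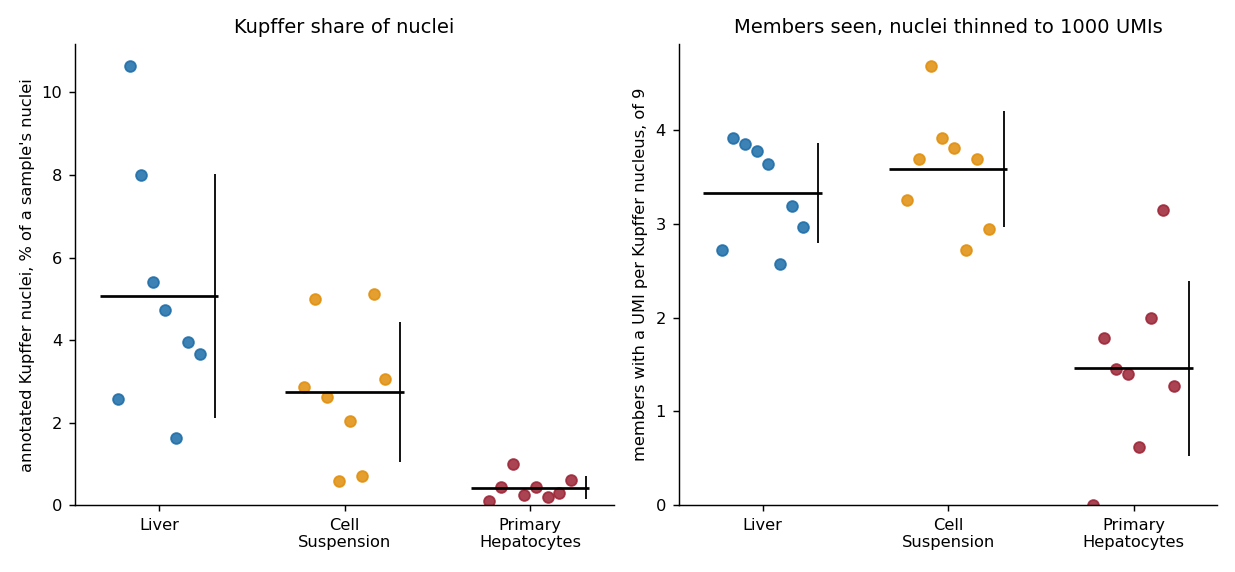
Left, annotated Kupffer nuclei as a percent of each sample's nuclei; right, mean number of the 9 members with a UMI per Kupffer nucleus after thinning to 1000 UMIs. Each point is 1 sample, the horizontal line is the mean and the vertical line spans 1 SD to either side, and the Primary Hepatocytes mean share is 0.424% against 5.08% in Liver. On the right, the Primary Hepatocytes points rest on 3 to 11 nuclei each.

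The members' UMIs lay in other nuclei to a larger part after culture. Kupffer nuclei held 90.2% of the Clec4f UMIs in L, 85.6% in CS and 41.1% in PH. For Csf1r these shares were 88.3%, 81.4% and 13.1%, for Adgre1 83.6%, 71.3% and 10.98%, and for Marco 77.2%, 68.4% and 6.90%. Most UMIs of the general macrophage receptors in cultured samples thus lay in nuclei not annotated as Kupffer cells, and mostly in hepatocyte nuclei, where Csf1r stood at 1.04 CPM (L), 1.24 (CS) and 2.56 (PH), and Adgre1 at 3.86, 4.32 and 5.77 CPM. These levels are low, and 97.0% of the Adgre1 UMIs in cultured hepatocyte nuclei were unspliced.

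The nuclei outside the Kupffer annotation were therefore tested on their own. Against Liver, 6 members were lower in Primary Hepatocytes, where 26.7 percent of genes were called lower. Clec4f had a range of 1.965 to 5.78 CPM in Liver and of 1.29 to 3.42 in Primary Hepatocytes, with overlap, and fell by 1.28 on the log2 scale (SE 0.27, edgeR, adjusted p = 0.000158). Cd5l (log2 −1.02), Cd163 (−0.87), Vsig4 (−0.82) and Timd4 (−0.81) were lower with adjusted p from 0.0108 to 0.0394, and Id3 was lower by 1.15 (adjusted p = 0.00116). With the mouse as a replicate block Timd4 no longer passed (log2 −0.72, adjusted p = 0.0523). Csf1r (0.46), Adgre1 (0.09) and Marco (0.06) did not pass. With the pool as a covariate, 1 member remained lower, Id3 (log2 −1.68), Clec4f was at −0.53 (adjusted p = 0.110), and Csf1r (log2 1.07, adjusted p = 0.00739) and Marco (1.48, adjusted p = 0.0354) were higher. In that fit 23.4% of all genes were called lower and 25.7% higher. Marco rests on few UMIs there. In pools 2 and 5, which held both sample types, it had 2 and 3 UMIs in Liver and 7 and 12 in Primary Hepatocytes. Of the 6 lower calls outside the Kupffer nuclei, that of Id3 held with the pool as a covariate. Among all genes, 28.7 percent were called higher without it.

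**Figure D5:**
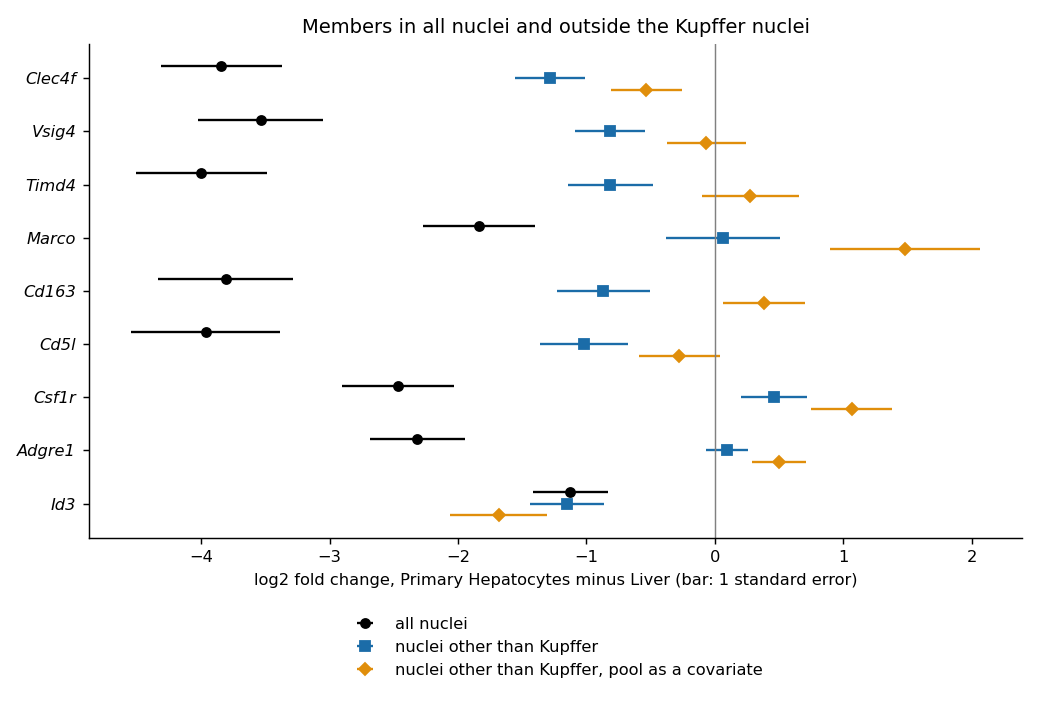
Log2 fold change of each member between Primary Hepatocytes and Liver, with a bar of 1 SE to either side, over all nuclei (circles), over nuclei other than Kupffer (squares) and over the latter with the pool as a covariate (diamonds). In all nuclei the 8 Kupffer genes lie between −4.00 (Timd4) and −1.84 (Marco), outside the Kupffer nuclei they lie nearer to 0 or past it, and Id3 is lower in all 3 fits.

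Barcodes with few UMIs, outside the table of nuclei, differed between the pools. Those with 100 to 400 UMIs were read as droplets without a nucleus, which was not tested. In them the 8 Kupffer genes (all members but Id3) summed to 249 CPM in pool 1, 72.7 in pool 2, 46.2 in pool 3, 114 in pool 4, 74.8 in pool 5 and 92.6 in pool 6. Outside the Kupffer nuclei the same sum was 20.02 CPM in the Liver samples and 42.4 CPM in the Cell Suspension sample of pool 1, and 9.42 and 10.97 CPM in the Cell Suspension and Primary Hepatocytes samples of pool 3. Within pool 2, it was 9.04 CPM for L, 17.6 for CS and 20.6 for PH, and within pool 5 it was 11.2, 11.1 and 15.0. In both pools that held Liver and Primary Hepatocytes, the cultured samples had the higher sum, to which Adgre1 (pool 2, 3.08 to 8.81 CPM, pool 5, 3.80 to 6.06) and Csf1r (0.917 to 3.07 and 1.11 to 2.72) gave most. Clec4f was lower in the cultured samples of both pools (1.965 to 1.83 and 2.76 to 1.55 CPM), and Vsig4 went from 0.786 to 1.58 in pool 2 and from 1.49 to 1.42 in pool 5. These within-pool values are CPM without the scaling factors of the fits, and the higher sums were not tested. The Liver samples were those of mouse 4 in pool 2 and mouse 5 in pool 5. Over all samples outside the Kupffer nuclei, Adgre1 had means of 6.16 CPM in Primary Hepatocytes and 4.42 in Liver, beside a fitted log2 of 0.09. Csf1r had 2.74 and 1.48 CPM, beside a fitted log2 of 0.46. The part of droplet RNA in the pooled comparison was not tested.

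Between Cell Suspension and Liver, outside the Kupffer nuclei, Id3 was higher (log2 1.32, SE 0.29, edgeR, adjusted p = 0.00110) and was the only one of the 9, where 8.13 percent of genes were called higher. With the pool as a covariate 5 members were higher, Cd163 (1.32), Vsig4 (1.03), Id3 (0.95), Cd5l (0.84) and Adgre1 (0.55), beside 8.63% of all genes called higher in that fit. In a fit without the pool term and without the Cell Suspension of mouse 7, Id3 passed at 1.34 (edgeR, adjusted p = 0.00136). Cd163 (0.41), Vsig4 (0.35), Adgre1 (0.30) and Cd5l (0.17) did not pass there. The pool as a covariate was not fitted without that sample. Against Cell Suspension, the cultured samples were lower for Id3 (−2.47), Cd163 (−1.51), Cd5l (−1.41), Vsig4 (−1.40) and Clec4f (−1.37), where 22.8 percent of genes were called lower. Without the Cell Suspension of mouse 7, which had the highest level of Clec4f (8.10 CPM), Cd5l (7.72), Vsig4 (7.72), Timd4 (2.70) and Cd163 (4.63) outside Kupffer nuclei, the calls numbered 5 again.

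Id3 was followed further in endothelial nuclei, which had its highest mean in Liver, within 1 SD of that in biliary nuclei. It ran from 22.9 CPM over a median of 42.4 to 100 in Liver, from 30.6 over 63.2 to 90.9 in Cell Suspension and from 13.9 over 37.5 to 61.0 in Primary Hepatocytes. The 3 ranges overlapped. Endothelial nuclei of the groups lay in different clusters. Of the 1809 in Primary Hepatocytes, 1733 came from a cultured cluster read as endothelial from markers, which held 2 nuclei of Liver and 26 of Cell Suspension. Id3 fell by 0.74 on the log2 scale between Liver and Primary Hepatocytes (edgeR, adjusted p = 0.0354) and by 1.04 between Cell Suspension and Primary Hepatocytes (adjusted p = 0.00967), and the difference of Cell Suspension from Liver was 0.31 (adjusted p = 0.599). Lower calls made up 10.7 percent of genes in the second of these. Hepatocyte nuclei, which were not tested on their own, had a pooled level of 13.7 CPM after culture, beside the 24.1 CPM of Liver and 53.6 CPM of Cell Suspension given above. Of the clusters, 1 of isolated hepatocytes held 113 CPM and 1 of endothelial nuclei 103 CPM. Of the 8 members tested in endothelial nuclei, 3 were called lower in Primary Hepatocytes than in Liver, where 18.4 percent of genes were, namely Id3, Clec4f (log2 −1.64) and Timd4 (−2.38). With a stricter filter on low genes none of the 3 was called, and with DESeq2 1 was. With the mouse as a replicate block Id3 no longer passed against Liver (log2 −0.67, edgeR, adjusted p = 0.0524), nor did it with RLE size factors (log2 −0.59, adjusted p = 0.100) or DESeq2 (log2 −0.57, adjusted p = 0.164).

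Other Kupffer genes were followed as a list of 20 that shares no gene with the 9 members. In whole samples 16 were lower, 3 higher and 1 not called in Primary Hepatocytes against Liver, with a median of log2 −2.39 against 0.12 over all genes, of which 27.1 percent were called lower and 28.6 percent higher. Ptprc, the leukocyte antigen CD45, fell from a mean of 35.1 to 3.18 CPM (log2 −3.82, edgeR, adjusted p = 1.61e-08). The 3 that rose were Hmox1, which breaks down haem, from 4.68 to 240 CPM (log2 5.35, adjusted p = 1.62e-12), Cd68, a lysosomal glycoprotein of macrophages, from 1.46 to 24.4 CPM (3.75, adjusted p = 2.3e-14), and Ctsb, a lysosomal protease. In hepatocyte nuclei the pooled levels went from 3.13 to 249 CPM for Hmox1 (28858 UMIs after culture, against 43 in Kupffer nuclei), from 0.859 to 25.4 for Cd68 and from 44.3 to 145 for Ctsb. In Cell Suspension against Liver, 1 of the 20 was called, Hmox1 (log2 2.93), beside 8.01 percent of all genes called higher and 12.6 percent lower. Within Kupffer nuclei edgeR called 0 of the 20, with 4 at an unadjusted p under 0.05. Among all 13819 genes tested there, 1.3 percent were called and 1675 had an unadjusted p under 0.05.

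Of 12 myeloid transcription factors, 6 were lower and 4 higher in Primary Hepatocytes than in Liver in whole samples, the higher share being near the 28.6 percent of all genes and the lower above the 27.1 percent. Spi1, which encodes PU.1, fell from 7.78 to 1.25 CPM (log2 −2.99), while Runx1, a factor of blood development, rose from 35.2 to 377 CPM (3.10). Outside the Kupffer nuclei 5 of the 12 were lower and 4 higher, beside 26.7 and 28.7 percent of all genes. Kupffer nuclei held 0.184% of the UMIs of cultured samples, so whole-sample levels there come mostly from other nuclei. Within Kupffer nuclei, 2 of the 12 were higher in Cell Suspension, where 1.08 percent of genes were, and 0 lower. Cebpb, a factor of inflammatory and acute-phase genes, went from 9.79 to 74.9 CPM (log2 2.84, edgeR, adjusted p = 1.86e-06), and Id2, a relative of Id3, from 28.5 to 107 CPM (1.62, adjusted p = 0.00255) with no overlap between the groups. Both were called in whole samples as well (log2 2.53 and 1.88), as was Nr1h2 (0.75). Summed hepatocyte markers reached 5036 CPM in Kupffer nuclei of a Liver sample and 9520 in those of a Cell Suspension sample, with 0 of 9 called. The part of hepatocyte RNA in the rises of Cebpb and Id2 was not tested.

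The signals that maintain Kupffer cells were held in a list of 14 ligands and receptors. In whole samples 7 were lower, 1 higher and 6 not called in Primary Hepatocytes against Liver, beside 27.1 percent of all genes lower and 28.6 percent higher. Csf1, the ligand of CSF1R, was the one that rose, from 10.2 to 24.7 CPM (log2 0.93, edgeR, adjusted p = 0.00145). In Liver it stood at 96.6 CPM in stellate nuclei (332 UMIs), 57.2 CPM in endothelial nuclei (503) and 5.14 CPM in the far more numerous hepatocyte nuclei (724), where it stood at 22.1 CPM in Primary Hepatocytes. Il34, the second ligand of CSF1R, did not pass in whole samples (log2 −0.03, adjusted p = 0.925), with 360 CPM in stellate nuclei of Liver and 172 in those of Primary Hepatocytes. In hepatocyte nuclei Il34 stood at 0.888 CPM in Liver and 11.1 in Primary Hepatocytes, where these held 1288 of its UMIs and stellate nuclei 98. In Cell Suspension Il34 was lower than in Liver, at 3.95 against 10.1 CPM (log2 −1.22, adjusted p = 0.00138). There 6 of 8 stellate markers were lower as well (median log2 −1.03), and stellate nuclei numbered 148 against 880. Within them Il34 stood at 280 CPM in Cell Suspension. The part of stellate nuclei in this fall was not tested. Of the BMP family ligands, Gdf2 (BMP9) fell by 2.28 on the log2 scale, from 1.66 to 0.439 CPM, and Bmp10 fell by 3.08, from 1.14 to 0.159 CPM, and both were found mainly in stellate nuclei of Liver (68.1 and 49.5 CPM). Eng, a co-receptor for these ligands, fell from 63.9 to 14.3 CPM (−2.48), Bmp2 from 14.0 to 3.35 CPM (−2.40) and Tgfb1 from 9.001 to 4.43 CPM (−1.34). The markers of the cells that carry these genes were lower in the same samples, with 7 of 8 stellate (median log2 −2.61) and 7 of 8 endothelial markers (−2.01) called lower, and their part in these falls was not tested. Within endothelial nuclei, 6 of 12 niche genes tested were lower and 1 higher in Primary Hepatocytes than in Liver. Among all genes 18.4 percent were lower there and 15.4 percent higher. Of the endothelial markers, 6 of 8 were lower within these nuclei too.

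Of 8 efferocytosis and scavenger genes, 7 were lower in Primary Hepatocytes than in Liver and 1 was higher, against 27.1 and 28.6 percent of all genes. Summed over the nuclei other than Kupffer, 6 of the 8 were lower (median log2 −1.37), beside 26.7 percent of all genes, and with the pool as a covariate, a count added after the data were seen, 5 were (median −1.66), beside 23.4% of all genes. The part of droplet RNA in these sums was not tested. Msr1, a scavenger receptor, fell from 39.2 to 3.66 CPM (log2 −3.79), Mertk, a receptor for dying cells, from 197 to 33.9 CPM (−2.86) and Axl, of the same receptor family, from 9.57 to 2.83 CPM (−2.08), whereas their bridging ligand Gas6 rose from 14.3 to 60.2 CPM (1.73). Of 12 genes of monocytes and other macrophages, 4 were higher, 4 lower and 4 not called, which is near the shares of all genes (28.6 and 27.1 percent). Gpnmb, a lysosomal glycoprotein of lipid-laden macrophages, rose from 0.837 to 30.2 CPM (log2 4.82), Cd9, a tetraspanin, from 6.42 to 44.6 CPM (2.43) and Cx3cr1, the fractalkine receptor, from 12.5 to 28.5 CPM (0.85). These are levels of whole samples, and Kupffer nuclei held 0.184% of cultured UMIs. Outside the Kupffer nuclei 4 of the 12 were higher and 2 lower, beside 28.7 and 26.7 percent of all genes. Within Kupffer nuclei, edgeR called 0 of the 8 tested genes of each of these lists between Cell Suspension and Liver, with 0 efferocytosis and 2 monocyte genes at an unadjusted p under 0.05. Of the 10 niche genes tested there, 0 were called and 1 was under 0.05. Over all 13819 genes of that fit, 1.3 percent were called and 1675 had an unadjusted p under 0.05.

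The 5 genes whose levels over the 24 whole samples were most like the mean of the 9 members were Klra2 (Pearson r = 0.981), Hyal5 (0.979), Abcg3 (0.970), Bank1 (0.970) and Nfam1 (0.970), out of 11288 genes compared on the log2(CPM + 1) scale. This is a description over samples that share depth and the number of Kupffer nuclei. In Liver, Kupffer nuclei held between 66.2% (Bank1) and 86.2% (Nfam1) of the UMIs of these genes. Hyal5, for example, went from 13.3 ± 7.97 CPM in Liver over 9.44 ± 8.44 in Cell Suspension to 1.32 ± 0.534 in Primary Hepatocytes (SD, n = 8 each).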

How the data were processed

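Nuclei of 24 samples were tagged with hashtag antibodies and sequenced in 6 pools. The deposited matrices hold raw UMI counts for each barcode and gene, split into spliced, unspliced and ambiguous, which the authors made with Salmon Alevin and Alevin-fry against a GRCm38 transcriptome. The authors' table of nuclei gives the hashtag sample, cluster and cell type of each nucleus after removal of doublets and negatives, with the margin of the hashtag assignment as a fraction from 0 to 1. Doublets were not called again. Counts were matched to nuclei by pool and barcode, and a hashtag label CD2 was read as the Cell Suspension of mouse 2. No column of another series was used.

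The 3 splicing states were added and summed per sample over all nuclei, Kupffer nuclei, other nuclei or endothelial nuclei, keeping sums of at least 10 nuclei of a type. Genes with at least 10 counts in all were fitted in edgeR 4.0.16 (R 4.3.3) with TMM factors, sample type as the only term and the quasi-likelihood test, with a threshold of 0.05 on the adjusted p. DESeq2 1.42.0 was an alternative. A fit of Kupffer nuclei with the 3 cultured samples of at least 10 such nuclei was added after seeing the data. The script was tested on simulated data. Cultured clusters were read as endothelial or stellate where the mean log2(CPM + 1) of a marker list exceeded 6, and as hepatocyte otherwise. Shares of nuclei, positive nuclei (thinned to 1000 UMIs) and unspliced UMIs (at least 20 UMIs) were compared by exact permutation tests over samples in Python 3.11.15. The planned adjustment of the last 2 over the members was replaced in the text by one over all genes. Intervals cover the fit or counting error and not the annotation.

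The members, lists and tests were chosen with earlier results of these data known. Named genes were the 9 members, the 3 called genes of each list with the largest absolute log2 fold change and at least 5 CPM in either group, the ligands Csf1, Il34, Gdf2 and Bmp10, and the 5 genes most like the members, and 1 gene that the rule selects is not reported here. Where a count was small, its other members were named after their values were seen. The range of 100 to 400 UMIs for barcodes read as without a nucleus and the marker level of 6 were also set after the data were seen. Sample numbers pair the samples, since the 3 samples of a number come from the liver of 1 mouse. Deviations from the group means correlated with a median of 0.0319 (−0.163 to 0.823) between samples of the same mouse, 10 of 24 pairs above 0.1, and −0.0113 between mice. Results under the block of the mouse are given with the other alternatives below.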

Additional observations from a re-analysis of the deposited data

Results flagged for a closer look

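Single samples were compared with the other 7 of their group for each member, in 78 groups of 8 samples, by the gap to the nearest sample over the whole range (Dixon's test). Of these, 11 values stood apart, and chance gives about 1 in 20 groups. For the Cell Suspension of mouse 7, the sample with the fewest nuclei, 7 values stood high: outside Kupffer nuclei Clec4f at 8.10 CPM (next sample 4.44), Cd5l at 7.72 (4.19), Vsig4 at 7.72 (3.18), Timd4 at 2.70 (1.16) and Cd163 at 4.63 (1.74), and over all nuclei Csf1r at 42.1 (15.1) and Adgre1 at 63.8 (29.6). It shared pool 1 with 3 Liver samples, and the barcodes of 100 to 400 UMIs in that pool had the highest sum of the 8 Kupffer genes, 249 CPM. The part of the pool in these values was not tested. In the Cell Suspension of mouse 3, Id3 stood at 113 CPM over all nuclei (next 59.7) and at 113 CPM outside Kupffer nuclei (next 59.0), and Clec4f at 2243 CPM in its 28 Kupffer nuclei (next 1626). In the Liver of mouse 2, Clec4f stood at 108 CPM over all nuclei (next 53.6), beside the largest Kupffer share, 10.6% of nuclei.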

How the results depend on the processing

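In whole samples the 9 lower calls of Primary Hepatocytes against Liver and against Cell Suspension, and the higher call of Id3 in Cell Suspension, held under every alternative run for them, including those added after seeing the data (without the Liver of mouse 2, without the Cell Suspension of mouse 7). Leaving out each mouse in turn gave 9 to 9 lower members in both comparisons and 1 to 1 higher. The Kupffer share differed by −2.83 to −1.86 points (Cell Suspension minus Liver, passing without mouse 7), −5.12 to −3.86 (Primary Hepatocytes minus Liver) and −2.61 to −1.97 (minus Cell Suspension). With the mouse as a replicate block, the first was −2.33 (exact p = 0.0625), and in the edgeR fits the block ended 2 calls of members, both for Primary Hepatocytes minus Liver, Timd4 outside Kupffer nuclei (−0.72, adjusted p = 0.0523) and Id3 in endothelial nuclei (−0.67, adjusted p = 0.0524), and no other. With nuclei other than hepatocytes as the denominator it was 1.71.

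Small differences between Cell Suspension and Liver changed sign. Over all nuclei, without the Liver of mouse 2, Cd5l was at 0.11, Vsig4 at 0.048, Csf1r at 0.068 and Cd163 at 0.0099, and leaving out each mouse gave −0.59 to 0.013 for Cd5l and −0.62 to 0.0067 for Vsig4. Within Kupffer nuclei, RLE factors, DESeq2, a stricter filter (filterByExpr) and sums thinned to the lowest total gave Clec4f 0.034, 0.037, 0.031 and 0.069, Vsig4 0.15, 0.14, 0.14 and 0.32, Csf1r 0.15, 0.15, 0.14 and 0.26, and Cd163 0.19, 0.20, 0.19 and 0.032. Thinned sums gave Timd4 0.13, Marco −0.35 and Adgre1 0.0075, unspliced counts alone gave Cd5l −0.026, a minimum of 20 nuclei gave Csf1r 0.0029 and Cd163 0.079, and the block gave Cd163 0.031. Leaving out each mouse gave Vsig4 −0.19 to 0.090, Csf1r −0.20 to 0.041 and Cd163 −0.093 to 0.093. Members called higher there numbered 0 with filterByExpr, unspliced counts or thinned sums, and 0 to 1 over the mice left out. The genes called lower and higher in that fit (31 and 149) were 12 and 222 with RLE factors, 10 and 182 with DESeq2, 4 and 82 with filterByExpr (3449 genes tested), 21 and 72 with unspliced counts, 4 and 60 with thinned sums (5759 genes), 54 and 139 with the block and 84 and 216 without a filter. Fewer genes tested and fewer counts go with the lower numbers, and the cause of the rest was not tested.

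Shares of positive Kupffer nuclei, thinned to 500 UMIs, differed by −1.21 (Clec4f), −1.36 (Timd4), −1.38 (Cd163), 4.88 (Cd5l) and 1.81 (Id3) points, the last 2 no longer under 0.05. Without thinning they differed by −0.406 (Clec4f), −1.72 (Vsig4), −4.91 (Timd4), −6.75 (Cd163), 0.722 (Cd5l) and 6.60 (Id3, exact p = 0.117), and with the block Timd4 by −0.182 and Cd163 by −0.587. Outside Kupffer nuclei, the pool as a covariate gave 5 higher members for Cell Suspension minus Liver, with Timd4 at 0.41, and 1 lower and 2 higher for Primary Hepatocytes minus Liver, with Timd4 at 0.28 and Cd163 at 0.38. Without the Cell Suspension of mouse 7, Clec4f was at −0.067 (Cell Suspension minus Liver). In endothelial nuclei, 1 member was lower with DESeq2 and 0 with filterByExpr. Within Kupffer nuclei, the lower members of Primary Hepatocytes minus Liver numbered 7, with 5 to 7 over the alternatives and 5 to 7 over the samples left out, and Id3 was at 0.0015 with RLE factors and 0.028 with DESeq2. Genes called lower and higher there (609 and 182) were 162 and 370 with RLE factors, 131 and 523 with DESeq2, 270 and 252 with filterByExpr (3801 genes), and 398 and 140, 291 and 60, and 343 and 113 without the cultured sample of mouse 3, 5 and 8. The 3 to 22 Kupffer nuclei of each cultured sample limit what can be said of them.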
